A study of Mus musculus with 2 samples.

Results

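The growth hormone and IGF axis was followed through 10 genes, namely the receptor Ghr, the transcription factors Stat5a and Stat5b, the feedback genes Cish and Socs2, the hormone gene Igf1, its circulating partner Igfals and the binding proteins Igfbp1, Igfbp2 and Igfbp4. These genes were chosen by name, and all 10 were present in both count matrices among 19073 features. Growth hormone binds its receptor on hepatocytes, and the kinase JAK2 then activates STAT5, which induces Igf1, Igfals, Cish and Socs2. The liver is the main source of circulating IGF1, which travels in complexes with the acid-labile subunit and IGF-binding proteins. CISH and SOCS2 belong to a family of inhibitors that damp the same receptor.

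The cells came from male p16-Tom mice on a C57BL/6 background that were heterozygous for p16-CreERT2 and for R26-CAG-LSL-tdTomato-WPRE. In these mice tamoxifen lets Cre act in cells whose p16 gene is active at that time, and the cells keep the red reporter tdTomato afterwards. Both groups carried these alleles, and both received CCl4, a hepatotoxin that injures the centre of the lobule, for 4 weeks and tamoxifen. The p16low (Tom-) and p16high (Tom+) hepatocytes were sorted after fixation by reporter, nuclear dye and mitochondrial dye, and each gave 1 library. The age and number of the mice behind a library are not given in the sources used here, and no untreated liver was analysed. With 1 library per group there are no replicates, so every interval below covers counting error only and every Tom+ to Tom- difference is one between 2 libraries.

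A total of 681279005 UMIs was spread over 23220 barcodes for Tom-, and 715333889 UMIs over 16339 barcodes for Tom+. The libraries shared 503 cell barcodes. The reporter tdTomato stood at 58.5 to 138 CPM (a gene's UMIs scaled to the total UMIs of the same cells) over lobule positions in Tom- hepatocytes and 665 to 1013 CPM in Tom+ hepatocytes, without overlap. After filtering, clustering and removal of clusters with immune, stromal or endothelial markers or few genes, 10922 Tom- and 10019 Tom+ hepatocytes remained, with medians of 32243 and 35307 UMIs per cell. All 8 genes of the hepatocyte list were detected, at 118274 to 165700 CPM summed over the list in Tom- cells and 118218 to 168610 CPM in Tom+ cells, across the lobule. The macrophage list (10 of 10 genes detected in each library) summed to 162 to 303 CPM and 118 to 251 CPM, and the endothelial list (10 of 10) to 63.0 to 77.5 CPM and 47.9 to 65.4 CPM. A cholangiocyte-like cluster and a sub-cluster led by collagen genes remained among the hepatocytes with 158 Tom- and 239 Tom+ cells, and leaving them out moved the member log2 ratios by at most 0.00615.

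Hepatocytes were ordered from the portal to the central end of the lobule by a score of 12 central and 13 portal marker genes, none of them a member, and cut into 8 bins of equal cell number. Of the 20941 cells, 4611 lay within 0.1 score units of a bin edge. The libraries were distributed differently along this axis. At the portal end, bin 1, lay 18.3% of the Tom- hepatocytes but 6.18% of the Tom+ ones, while at the central end, bin 8, the shares were 5.04% and 20.6%. For this reason Tom+ and Tom- cells were compared within bins. Matching by bin is not exact. In bin 8 the median score was 2.98 in Tom- and 3.21 in Tom+ cells, and in bin 1 it was -3.24 and -3.18. The assay reads short probe targets, so levels are compared within a gene and not between genes.

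Promoter sequences were available for 9 of the 10 members, as RefSeq windows on GRCm38 from 250 bases before to 50 after each transcription start, and Socs2 was not among them. The STAT motif TTCNNNGAA and the insulin response motif CAAAANA, which the insulin-restrained FOXO factors bind, were searched on both strands, because Cish and Igfbp1 are textbook targets of these inputs. Capitals mark the matches.
Cish, chr9:107296656-107296681, plus strand: gttTTCCTGGAAagTTCTTGGAAatc
Igfbp1, chr11:7197676-7197699, plus strand: aagCAAAACAaactTATTTTGaac
In Cish the first STAT match began at the RefSeq start itself and a second began 11 bases further in. The GENCODE span of Cish given below begins further upstream, at 107296026. Among all 32851 windows, 8.30% held the STAT motif and 0.457% held it more than once. Igfals was the only other member with a match, in 2 of its 3 windows. In Igfbp1 the insulin response matches began 108 and 97 bases before the start, where 18.6% of all windows held that motif and 3.14% held it more than once. Cish also held 1 insulin response match. A match is a description of letters and not of a bound site.

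Along the lobule, the member genes had several profiles. Cish, Igf1 and Igfals were highest in the portal bins, Socs2 and Igfbp1 in the central bins, Igfbp2 between the ends and Ghr in bin 3, while Igfbp4 and both STAT5 genes varied by at most 1.22-fold between bins of a library. Of the 10 members, 1 (Cish) passed 2-fold between the central and portal bins as the mean of the libraries, against 6.97% of the 7836 genes with at least 10 CPM (4.28% higher at the central and 2.69% at the portal end). By the highest against the lowest bin, 3 members (Cish, Igfbp2 and Igf1) passed 2-fold as the mean of the libraries, against 7.77% of genes, with Igf1 at 1.82-fold in Tom- and 2.20-fold in Tom+ cells. The median gene was itself 0.21 log2 units higher at the central end, and 61.4% of the genes past 2-fold were higher there, or 45.0% when scaled by the median of ratios. No member had opposite central-to-portal signs in the libraries.

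**Figure D1:**
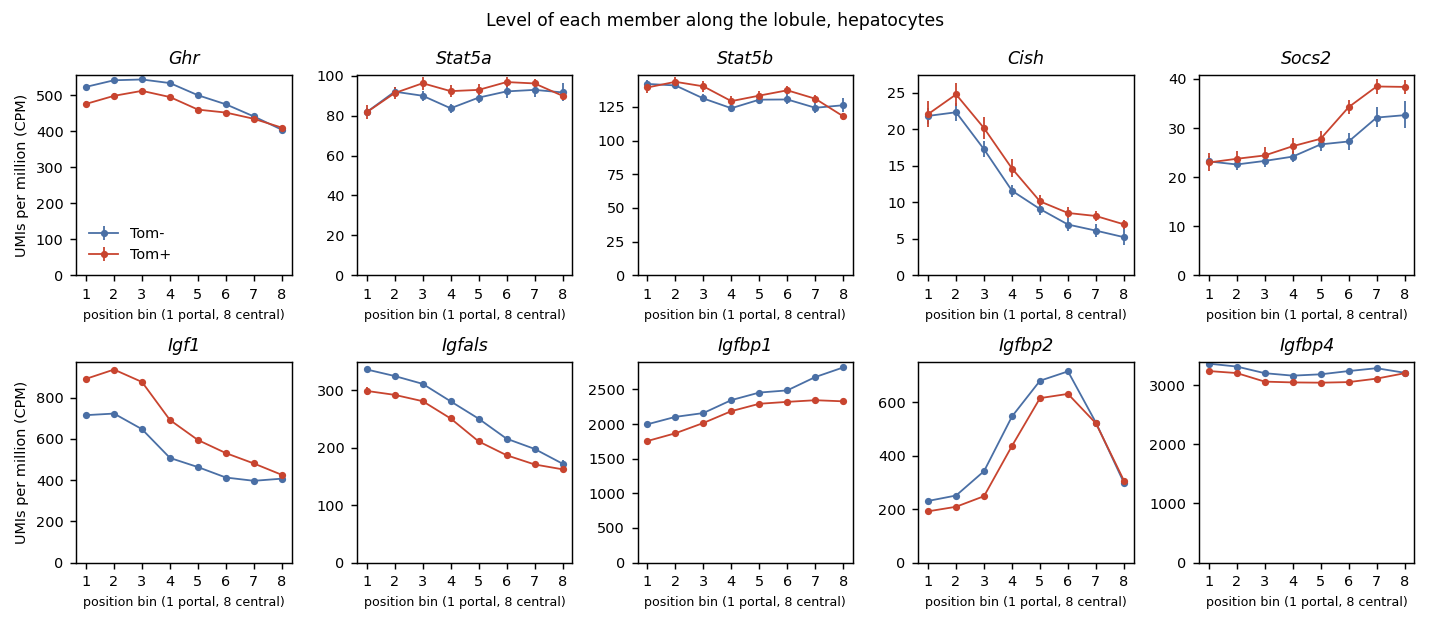
Level of each member (CPM) in hepatocytes of 8 position bins from portal (1) to central (8), with the Tom- library in blue, the Tom+ library in red and exact 95% Poisson intervals as bars. Cish fell from 22.3 to 5.22 CPM in the Tom- library, Igfbp2 peaked in bin 6 of both libraries, and Igfbp4 stayed between 3158 and 3361 CPM in the Tom- library.

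Ghr (chr15:3317760-3583492, minus strand), the growth hormone receptor, was at 513 CPM in Tom- hepatocytes (510 to 515) and 458 CPM in Tom+ hepatocytes (456 to 460). Its highest bin was bin 3 and its lowest bin 8 in both libraries, 1.35-fold apart in Tom- and 1.25-fold in Tom+ cells. The central bin was lower than the portal bin by a log2 ratio of -0.37 (-0.41 to -0.34) in Tom- and -0.22 (-0.24 to -0.19) in Tom+ cells. Stat5a (chr11:100859351-100885169, plus strand) and Stat5b (chr11:100780731-100850724, minus strand) encode near-identical transcription factors and lie next to each other, and whether their probes share signal was not tested. Stat5a stood at 88.1 CPM (87.2 to 89.0) in Tom- and 92.8 CPM (91.8 to 93.7) in Tom+ cells, and Stat5b at 133 CPM (132 to 134) and 132 CPM (131 to 133). Their highest bins were 1.14-fold and 1.15-fold above their lowest in Tom- cells and 1.18-fold and 1.22-fold in Tom+ cells. The central-to-portal log2 ratio was 0.16 and 0.14 for Stat5a and -0.17 and -0.24 for Stat5b, and the mean for Stat5a became -0.07 with median-of-ratios scaling.

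Cish (chr9:107296026-107302784, plus strand), a STAT5 target that inhibits the receptor pathway, had the steepest gradient of the members. It was at 14.5 CPM in Tom- (14.1 to 14.9) and 12.5 CPM in Tom+ hepatocytes (12.2 to 12.9). In Tom- cells it fell from 22.3 CPM in bin 2 to 5.22 CPM in bin 8, a log2 ratio of bin 8 to bin 1 of -2.07 (-2.39 to -1.75). In Tom+ cells it fell from 24.8 to 6.97 CPM, with a ratio of -1.66 (-1.83 to -1.49). Only 0.906% of the genes tested had a more portal ratio.

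Socs2 (chr10:95385362-95417180, minus strand), the other feedback gene and also a STAT5 target, ran the opposite way. It stood at 25.2 CPM in Tom- (24.7 to 25.7) and 31.5 CPM in Tom+ hepatocytes (31.0 to 32.1). Its level rose from 22.6 CPM in bin 2 to 32.6 CPM in bin 8 in Tom- cells, and from 23.0 CPM in bin 1 to 38.5 CPM in bin 7 in Tom+ cells. The central-to-portal log2 ratios were 0.49 (0.35 to 0.63) and 0.74 (0.62 to 0.87). Over the 8 bins the correlation of log2 levels of Cish and Socs2 was -0.94 in each library. These points share the position score, the bins and the library, and 8 bins of 1 library are not replicates.

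Igf1 (chr10:87858265-87937042, plus strand), the hormone gene, was at 572 CPM in Tom- (570 to 575) and 620 CPM in Tom+ hepatocytes (617 to 622). It fell from 723 CPM in bin 2 to 396 CPM in bin 7 in Tom- cells, and from 936 CPM in bin 2 to 425 CPM in bin 8 in Tom+ cells. The central-to-portal log2 ratio was -0.81 (-0.85 to -0.78) in Tom- and -1.07 (-1.09 to -1.04) in Tom+ cells. Igfals (chr17:24865997-24882010, plus strand) encodes the acid-labile subunit, which extends the life of IGF1 in the blood. It stood at 281 CPM (279 to 283) and 215 CPM (213 to 216), and its log2 ratios were -0.97 (-1.02 to -0.91) and -0.88 (-0.92 to -0.84). Both genes were lowest towards the central end in each library, and their log2 levels had Pearson correlations of 0.93 and 0.99 over the same 8 bins of the Tom- and Tom+ libraries.

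The 3 binding proteins had 3 different profiles. Igfbp1 (chr11:7197782-7202546, plus strand), a short-lived regulator of free IGF1 that insulin represses, was at 2288 CPM in Tom- (2284 to 2293) and 2198 CPM in Tom+ cells (2194 to 2203), and its central-to-portal log2 ratios were 0.50 (0.48 to 0.51) and 0.41 (0.39 to 0.42). Igfbp2 (chr1:72824503-72852474, plus strand), another serum binding protein, was at 433 CPM (431 to 435) and 422 CPM (419 to 424). It rose from 230 CPM in bin 1 to 715 CPM in bin 6 of the Tom- library and returned to 298 CPM in bin 8. In the Tom+ library it rose from 191 to 630 CPM in the same bins and returned to 306 CPM, so its highest bin was 3.10-fold and 3.29-fold above its lowest. Igfbp4 (chr11:99041244-99054392, plus strand), which holds IGF in an inactive complex until it is cleaved, was at 3247 CPM (3241 to 3253) and 3115 CPM (3110 to 3121), and its highest bin was 1.06-fold above its lowest in each library.

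Genes of like profile were ranked for each of the 9 members with at least 20 CPM in both libraries, by Pearson's r over the 16 points of 8 bins and 2 libraries among 5716 genes. Igf1 was closest to Bche (r = 0.990), Mccc2 and Psen2, Igfals to Cyp2d26 (0.990), and Ghr to Prodh2 (0.985). Igfbp2 was closest to Cyp2b10 (0.974), a cytochrome induced through the receptor CAR, and Socs2 to Sirt7 (0.982). Stat5a reached 0.853 at most, with Snx21. The points share bins and library, and the values describe likeness of shape alone.

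Between Tom+ and Tom- cells at matched position, the members differed little. None of the 10 passed 1.5-fold, as against 0.268% of the 7836 genes (0.242% higher and 0.0255% lower in Tom+), and the median absolute log2 ratio was 0.15 for members and 0.08 for all genes. The ratios of 5 members kept 1 sign in all 8 bins, which 37.7% of genes also did. Igf1 and Cish were higher in Tom+ cells in 8 of 8 bins, as were 18.1% of genes, and Igfals, Igfbp1 and Igfbp4 were lower in 8 of 8, as were 19.6%.

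**Figure D2:**
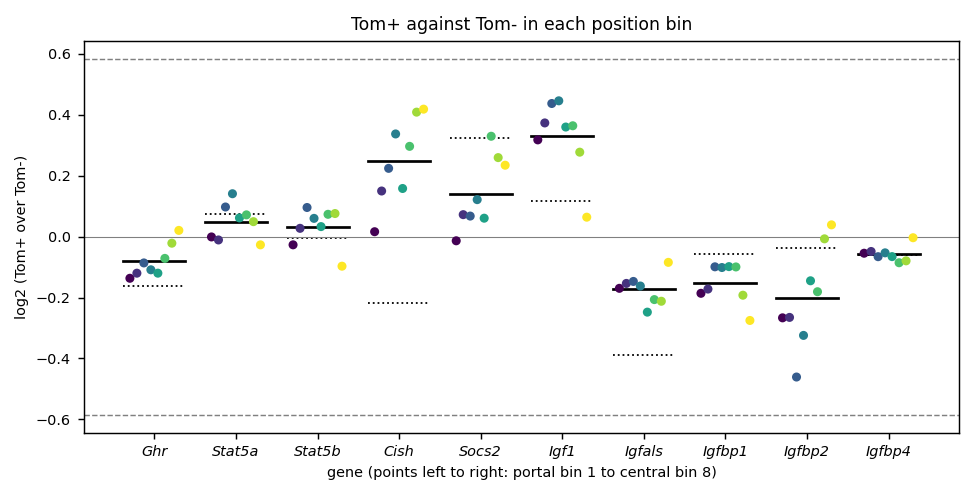
log2 ratio of Tom+ to Tom- CPM for each member in each of 8 position bins (points, portal to central from left to right), with the mean over bins as a solid line, the ratio of pooled hepatocytes as a dotted line and 1.5-fold as dashed lines. All 8 points of Igf1 and of Cish lie above 0, while the pooled ratio of Cish lies below it.

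Igf1 had a mean log2 ratio of 0.33 (0.32 to 0.34), 1.26-fold, with bins from 0.06 to 0.45, the largest of the members as processed here. Cish was as large or larger with cells thinned to 5000 UMIs (0.27 against 0.24 for Igf1) and with the mean of per-cell CPM (0.24 for both). Of the genes tested, 98.4% had a lower ratio than Igf1 as processed here. Without position matching the pooled ratio of Igf1 was 0.12 (0.11 to 0.12). Bin edges set in each library on its own, which no longer match position, gave 0.08 for Igf1. That was below the size of the values of Igfals (-0.41) and Socs2 (0.31) under the same setting. Leaving out the nearly all Tom+ sub-clusters (at least 90% Tom+) gave 0.32 for Igf1. The clusters removed before this comparison held 9237 Tom- but 3359 Tom+ cells. The largest of them held 4218 Tom- and 382 Tom+ cells. Its Igf1 level was 838 and 771 CPM, above the 572 and 620 CPM of the hepatocytes kept. An alternative with a wider marker limit kept 16893 Tom- and 11519 Tom+ cells. Over all 18 alternatives the Igf1 ratio lay between 0.08 and 0.34. Igfals, the partner of Igf1, went the other way, at -0.17 (-0.19 to -0.16), with bins from -0.25 to -0.08.

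Cish was higher in Tom+ cells at a matched log2 ratio of 0.25 (0.18 to 0.32), with bins from 0.02 to 0.41. Pooled over the lobule the ratio was -0.22 (-0.27 to -0.16), in the opposite direction. Cish was low at the central end of both libraries, and 20.6% of Tom+ but 5.04% of Tom- cells lay in bin 8. With bin edges set in each library on its own, which no longer match position, its ratio was also negative, at -0.23. Without the nearly all Tom+ sub-clusters the matched ratio was 0.11, positive in 7 of 8 bins. Socs2 had a matched ratio of 0.14 (0.10 to 0.18), positive in 7 of 8 bins, and 0.06 without those clusters.

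Igfbp2 was at a matched log2 ratio of -0.20 (-0.21 to -0.19), lower in 7 of the 8 bins, with its largest difference of -0.46 on the portal side of its peak. Igfbp1 stood at -0.15 (-0.16 to -0.15), and at -0.06 without the nearly all Tom+ sub-clusters. The values of Ghr (-0.08), Igfbp4 (-0.06), Stat5a (0.05) and Stat5b (0.03) were nearer to 0, where the median of all genes was -0.01. Without the nearly all Tom+ sub-clusters Stat5a was at 0.11, higher in 8 of 8 bins, and Ghr at -0.12, lower in 8 of 8. Stat5b changed sign in 3 of the 18 alternatives.

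The 20941 hepatocytes formed 14 sub-clusters when clustered again without the members among the variable genes, and 3 of these were at least 90% Tom+. The larger pair was a sub-cluster led by H2-Q1 and Ces2c, with 1463 Tom+ and 34 Tom- cells, and one led by Orm3 and Chrna4, with 482 and 35. Both were compared with the other Tom+ cells of the same bins, as a description only. In the H2-Q1 sub-cluster Cish stood at a mean log2 ratio of 0.74, with 0.23 to 1.02 over 5 bins. Socs2 was at 0.42 (0.05 to 0.68), Igfbp1 at -0.64 (-0.79 to -0.31) and Stat5a at -0.52. In the Orm3 sub-cluster Cish was at 0.54, with 0.52 to 0.63 over 4 bins, Socs2 at 0.37 and Igfbp1 at -0.55. Ghr stood at 0.30 in the H2-Q1 and 0.13 in the Orm3 sub-cluster. Igf1 stood at 0.07 in the first and 0.01 in the second. In these contrasts 2.81% and 2.57% of genes passed 1.5-fold, as did Cish and Igfbp1 in the H2-Q1 sub-cluster and no member in the Orm3 sub-cluster.

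The depth of a cell moved with several members. Within library and bin, cells were split into terciles by UMI number, with medians of 18396, 32232 and 53355 UMIs in Tom- and 18625, 35290 and 62724 in Tom+ cells. Igf1 fell from 774 through 636 to 401 CPM with depth in Tom- cells and from 824 through 758 to 593 CPM in Tom+ cells. The log2 ratio of the deepest to the shallowest tercile was -0.93 and -0.46, negative in 8 of 8 bins of each library. Cish followed at -0.69 and -0.57. These 2 of the 10 members passed 1.5-fold as the mean of the libraries, against 5.82% of genes, and both were lower in the deepest cells, as were 5.79%. Ghr, Igfals, Igfbp2 and Igfbp4 were higher in the deepest tercile in 8 of 8 bins of both libraries, and the 6 others were lower as the mean of bins and libraries, where the median of all genes was itself at -0.14.

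The Tom+ to Tom- difference in Igf1 widened with depth. This split was chosen after seeing the data and used terciles common to both libraries. At matched position, the log2 ratio was 0.08 in the shallowest, 0.31 in the middle and 0.63 in the deepest cells, with Tom+ higher in 7, 8 and 8 of 8 bins. Past 1.5-fold were 0 members in the shallowest and middle cells, against 0.242% and 0.332% of genes, and Igf1 alone in the deepest, against 1.76%. All bins had 1 sign for 10.6%, 22.3% and 44.9% of genes. In UMIs per cell, Igf1 rose from 13.8 through 20.8 to 22.6 in Tom- cells and from 14.5 through 26.6 to 38.5 in Tom+ cells. Matching on bin and depth tercile together gave a ratio of 0.34. Like the CPM of Igf1, that of the mitochondrial transcript mt-Co1 fell with depth. It went from 810 through 591 to 311 CPM in Tom- cells and from 1347 through 1199 to 789 CPM in Tom+ cells. The median mitochondrial share of a cell's UMIs was 1.22%, 1.29% and 1.18% in Tom- and 1.45%, 1.52% and 1.45% in Tom+ cells. The part of mt-Co1 in the Igf1 difference was not tested. The macrophage list stayed between 225 and 235 CPM in Tom- and between 186 and 200 CPM in Tom+ cells over the terciles.

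**Figure D3:**
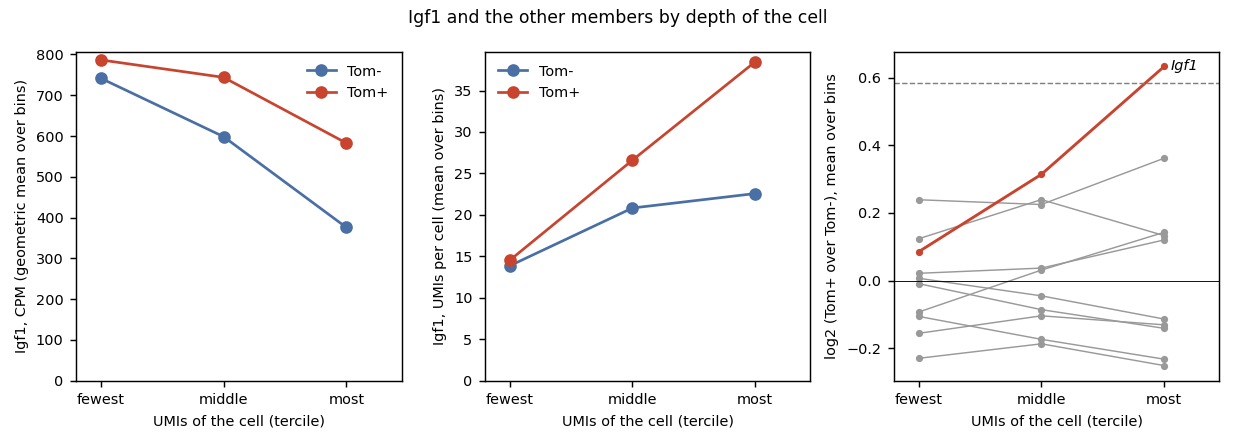
Igf1 in CPM (left) and in UMIs per cell (middle) for Tom- (blue) and Tom+ (red) hepatocytes in terciles of UMIs per cell, averaged over 8 bins, and the log2 ratio of Tom+ to Tom- for each member (right, Igf1 in red, the other 9 in grey, dashed line at 1.5-fold). The Igf1 ratio widens from 0.08 to 0.63, and no other member passes the dashed line.

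At single-cell level the members were compared after each cell was thinned to 5000 UMIs, which left out the shallower cells and kept 10881 Tom- and 9982 Tom+ cells. The variance of Igfbp1 over cells was 3.36 times its mean, where 27 genes of like mean had a median of 1.52. Igfbp2 stood at 1.62 against 1.10. Socs2 (1.06 against 1.02) and Cish (1.05 against 1.01) were nearer to their medians. They still lay above 96.4% and 94.7% of their genes of like mean, beside 96.3% for Igfbp1. Igfbp4, at a mean of 15.4 UMIs per cell, lay below its like-mean median, at 1.39 against 1.59. Ghr was also below, at 1.09 against 1.13. Each variance was taken over all cells and not within bins, and the part of lobule position in it was not tested. The strong correlations over bins were not seen at cell level. Igf1 with Igfals stood at -0.07 in Tom- and 0.01 in Tom+ cells, and Cish with Socs2 at 0.01 and 0.02. Cish and Socs2 averaged only 0.08 and 0.15 UMIs per thinned cell.

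The rest of the pathway was examined with 30 genes. Of the 29 that were measured, 15 reached 10 CPM, 0 of them passed 1.5-fold between libraries (0.268% of all genes), and 1 passed 2-fold along the lobule, a share close to the 6.97% of all genes. That gene was Irs1, an adaptor of the insulin and IGF receptors, which rose from 69.9 to 135 CPM from the portal to the central bin in Tom- cells and from 63.4 to 136 CPM in Tom+ cells. Of the 15, 12 had a higher central than portal level, with a median log2 ratio of 0.19 beside 0.21 for all genes. Growth hormone itself, Gh, had 0 UMIs in Tom- and 1 UMI in Tom+ hepatocytes. The IGF1 receptor gene Igf1r stood at 0.608 CPM and 0.429 CPM, and Igf2 at 0.454 and 0.436 CPM, all far under the testing limit. Socs3, a feedback gene of the JAK and STAT pathway induced by cytokines of the interleukin 6 family, was under 10 CPM at 2.17 and 4.33 CPM. These values are pooled over the lobule, and at matched position its log2 ratio was 0.42. Socs3 rose from 1.17 to 7.32 CPM from the portal to the central bin in Tom- and from 1.33 to 7.71 CPM in Tom+ cells.

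Genes that growth hormone keeps higher in male or in female mouse liver were listed as readouts of the hormone's secretion pattern, and these libraries came from males. Of 12 male-higher genes measured, 7 reached 10 CPM, and of 13 female-higher genes also 7. Among the genes that reached 10 CPM, none of either list passed 1.5-fold between libraries, as against 0.268% of all genes. The medians of the matched log2 ratios were 0.13 for the male-higher genes, positive in 7 of 7, and -0.07 for the female-higher genes, positive in 1 of 7, beside -0.01 for all genes. These signs rest on 1 library per group, and a difference in growth hormone action was not tested. Cyp2d9 (0.37, and 0.16 without the nearly all Tom+ sub-clusters), a male-higher cytochrome, Mup20 (0.29, and 0.16 without them) and Nudt7 (0.12, and 0.02 without them) were higher in Tom+ cells in 8 of 8 bins, as were 18.1% of all genes. Selenbp2 stood at 0.57, the largest among the 7 male-higher genes compared, with 7 of 8 bins higher, and at 0.23 without those sub-clusters. Its level was 8.88 CPM in Tom- and 12.5 CPM in Tom+ cells, so it reached 10 CPM in the Tom+ library alone. Of the female-higher genes, Cyp2b9 (-0.21, and -0.11 without those sub-clusters), a cytochrome, and Cux2 (-0.21 with and without them), a transcription factor of female liver, were lower in 8 of 8, as were 19.6% of all genes, and Abcd2 (0.07, and 0.02 without them), a peroxisomal transporter, was higher in 8 of 8. Several male-higher genes were nearly absent, with Hsd3b5 at 0.118 and 0.256 CPM, Cyp4a12a at 21 and 68 UMIs and Elovl3 at 8 and 21 UMIs. These values are pooled over the lobule and not matched for position.

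Both lists held genes of either end of the lobule. At the portal end, Mup3, a major urinary protein of the male-higher list, fell from 1077 CPM to 114 CPM towards the centre in Tom- cells and from 1276 to 86.9 CPM in Tom+ cells. The female-higher A1bg fell from 336 to 36.3 CPM and from 375 to 25.6 CPM, and Cyp2b9 and Cux2 were portal too. At the central end were C6, a complement component, at 56.5 and 175 CPM in the portal and central bins of Tom- cells and 60.02 and 172 CPM in those of Tom+ cells. Cyp2d9 rose from 29.7 to 77.4 CPM and from 34.7 to 126 CPM, and Acot3, a peroxisomal thioesterase, from 25.1 to 61.1 CPM and from 22.9 to 70.0 CPM. Of the male-higher genes 2 of 7 were central and 1 portal past 2-fold, and of the female-higher genes 1 of 7 and 3, beside 4.28% central and 2.69% portal of all genes tested.

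The 11 of 20 clusters left out of the hepatocytes, for markers of other cell types or for few genes, held 9237 Tom- and 3359 Tom+ cells. The hepatocyte list in these clusters stood at 0.558 to 1.37 times its hepatocyte level, so hepatocyte RNA was present in each of them. Levels of members there are therefore not read as expression by other cell types. Cluster 12 was left out for few genes only and held the hepatocyte list at 1.28 and 1.37 times. Ghr lay at 0.479 to 1.10 times, Igfbp4 at 0.525 to 1.11 times and Igfals at 0.428 to 1.10 times its hepatocyte level. Igfbp1 ranged from 0.266 to 1.00 times and Igf1 from 0.785 to 1.68 times.

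Igf1 in cluster 13, led by Gpnmb and Adam8 with 16310 CPM of the macrophage list, was at 835 CPM in Tom- (799 to 872) and 722 CPM in Tom+ cells (658 to 791), where the hepatocyte list was at 0.628 and 0.558 times its hepatocyte level. Relative to that list Igf1 was 2.32-fold and 2.09-fold its hepatocyte ratio there, while Ghr was at 0.80 and 0.86 and Igfals at 0.76 and 0.77. The cells of cluster 13 had medians of 5414 and 4440 UMIs, beside 26694 and 36075 in all cells kept, none of the 10 genes of the macrophage list was among its top 10 genes although 10 of 10 were raised, and the cluster was left unnamed. Igf1 was also high in cluster 11, led by Hecw2 and Oit3, at 959 and 950 CPM, and in cluster 12, led by Mup17, at 943 and 916 CPM. Relative to the hepatocyte list these were 1.54-fold and 1.35-fold in cluster 11 and 1.28-fold and 1.08-fold in cluster 12. Among the hepatocytes, cluster 2, led by Mfsd2a and Myo15b, had Igf1 at 899 and 990 CPM. In cluster 0, led by Gpnmb and Mup17 and the largest left out with 4218 Tom- and 382 Tom+ cells, Igf1 was at 838 and 771 CPM, 1.47-fold and 1.12-fold relative to the hepatocyte list, and was among the top 10 genes, and Igfbp1 was at 2061 and 1822 CPM. The median depths were 10312 and 7157 UMIs in cluster 11, 18786 and 23668 in cluster 12, and 13531 and 31519 in cluster 0. Igf1 was higher in hepatocytes of few UMIs as well, and the part of depth in these values was not tested. Igfbp1 was low in clusters 11, 12 and 13, at 792, 743 and 656 CPM in Tom- and 620, 584 and 599 CPM in Tom+ cells, against 2288 and 2198 CPM in hepatocytes and 2801 CPM in the Tom- hepatocytes with fewest UMIs. Igfbp1 was not alone in this. Stat5a lay at 0.436 to 0.534 times its hepatocyte level in the same 3 clusters. In cluster 12 Socs2 was at 0.443 and 0.529 times and Cish at 0.533 and 0.430 times, on few UMIs.

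**Figure D4:**
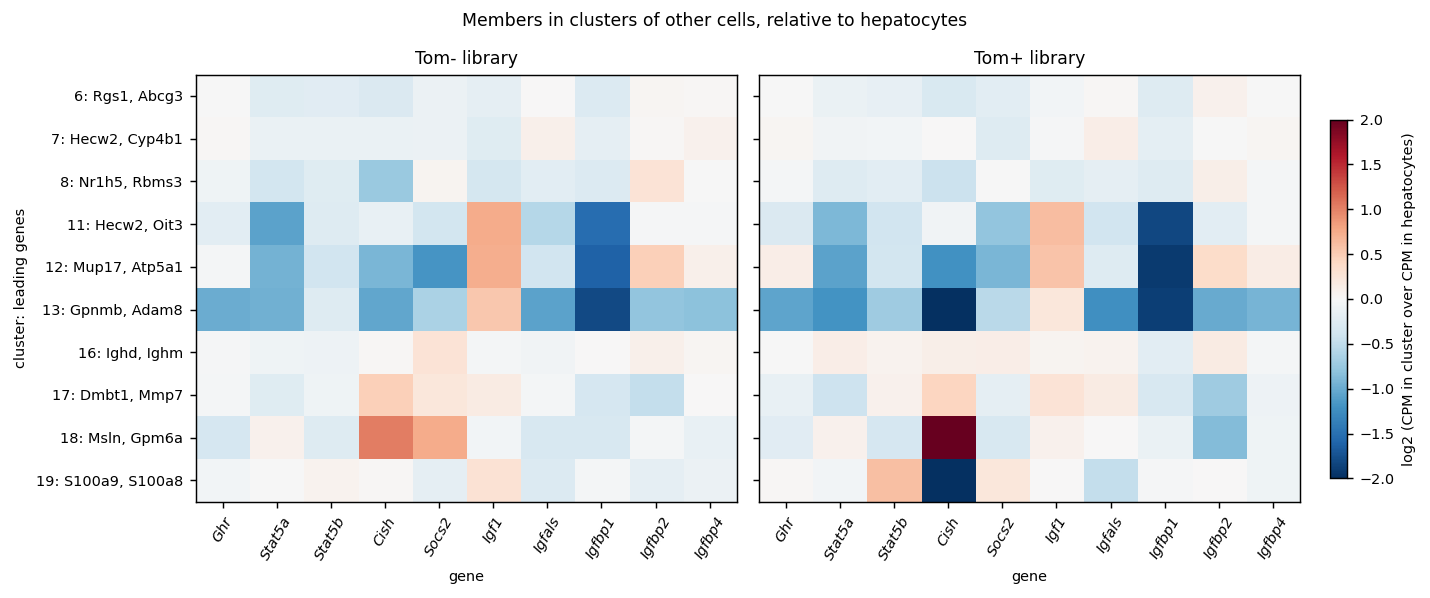
log2 of the level of each member in 10 clusters, named by their 2 leading genes, over its level in hepatocytes of the same library, from lower (blue) to higher (red), with values beyond 2 drawn at the end of the scale. Clusters 0 and 15, also left out of the hepatocytes, are not drawn, while cluster 17, which was kept among the hepatocytes, is. Most cells of the map are pale, and clusters 11, 12 and 13 are low in Igfbp1 and Stat5a. Clusters 11 and 12 are high in Igf1 in both libraries, while cluster 13 is at 1.46 times in Tom- but 1.17 times in Tom+. Cish is high in cluster 18, on 21 and 16 UMIs.

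In cluster 18, mesothelial-like by Msln, Upk3b and Wt1, Cish stood at 29.6 CPM in Tom- (18.4 to 45.3) and 50.6 CPM in Tom+ cells (28.9 to 82.1), from 35 and 15 cells. Pathway genes low in hepatocytes marked other clusters. Igfbp7, a protein of vessel walls and matrix, was at 1094 and 1284 CPM in cluster 11, whose endothelial list summed to 2990 CPM, beside 51.3 and 48.1 CPM in hepatocytes. Igfbp3, the main carrier of IGF1 in the blood, was at 57.5 and 48.0 CPM in cluster 8, led by Nr1h5 and Rbms3 a mixed cluster in which all 10 stellate and fibroblast, all 10 macrophage and all 10 endothelial markers were at 1.5 times their level in other cells or more (1242, 1227 and 365 CPM summed), against 2.28 and 2.03 CPM. Igfbp5 was at 294 and 335 CPM in the mesothelial-like cluster against 2.87 and 2.66 CPM. Igf1r was at 11.8 and 14.2 CPM in cluster 11, 19.3 and 33.2 times its hepatocyte level, on 60 and 25 UMIs. Ptpn1, a phosphatase that acts on JAK2 and the insulin receptor, was at 139 and 101 CPM in cluster 13 against 12.3 and 12.6 CPM. Socs1, an interferon-induced inhibitor of JAK kinases, was at 20.3 and 13.8 CPM in cluster 14, hepatocytes led by Rsad2 and Cxcl10, against 0.916 and 0.850 CPM.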

How the data were processed

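Fixed cells were profiled with a hybridisation-based single-cell kit. The values are raw UMI counts as deposited, which the authors made with Cell Ranger 7.2.0 on the mm10 reference with custom tdTomato probes, without normalisation. Cells with a mitochondrial fraction over 0.05, fewer than 2000 or more than 10000 genes, or over 100000 UMIs were removed, as in the study's methods.

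Counts scaled to 10000 per cell were clustered with both libraries together and members left out of the 2000 variable genes (30 components, 20 neighbours, Leiden resolution 0.8, scanpy 1.11.5, leidenalg 0.10.2, Python 3.11.15). A cluster was not taken as hepatocytes if its cells had few genes (median below 0.75 of the overall median) or if Ptprc, Dcn or Pecam1 reached 2.5 times its median over clusters. Scrublet marked 1 Tom- and 0 Tom+ cells, so it did not work here and no cell was removed by it. An alternative dropped the top 10% of cells by doublet score.

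Counts were summed per library and bin and given as CPM. Intervals are exact Poisson for levels and exact conditional for ratios of 2 sums, at 95%. The matched ratio is the mean over 8 bins of log2(Tom+ over Tom-) with a pseudocount of 0.5 UMIs, with an interval by a normal approximation from the counts. Genes with at least 10 CPM in either library were compared, at 1.5-fold between libraries and 2-fold along the lobule. No test between groups was possible with 1 library each. The ratio script was tested on simulated counts. All intervals cover counting error only.

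The members, gene lists and limits were chosen with earlier results of these data known. All members are named. Other genes are named when past a limit, when at least 4 times their hepatocyte level in another cluster (the text gives those resting on most UMIs), or among the 3 most alike by profile. Further genes named for low levels (Gh, Igf1r, Igf2, Socs3, Hsd3b5, Cyp4a12a, Elovl3), mt-Co1, Mup20, Nudt7, Selenbp2 and Abcd2 were chosen after their values were seen. Gene positions are from GENCODE vM21 (GRCm38, the build of the files).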

Additional observations from a re-analysis of the deposited data

How the results depend on the processing

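No paired analysis was possible because a single library stands for either group. Over 18 alternatives, 247 of 350 member ratios stayed within their counting interval, 103 moved beyond it and 5 changed sign. The central-to-portal ratio of Cish, the only member ratio past a limit, did not reverse. The number of members past 1.5-fold between libraries was 0 under every alternative run. The number past 2-fold along the lobule became 2 with cells thinned to 5000 UMIs (Cish and Igf1) and 3 with median-of-ratios scaling (also Igfals), where 582 of 7908 and 525 of 7836 genes passed. The scaling lowered the median central-to-portal ratio of all genes from 0.21 to -0.02 and gave Stat5a a ratio of -0.07. That scaling left 45.0% of the called genes higher at the central end, where the reported scaling gave 61.4%. Over all genes, 21 passed 1.5-fold between libraries. That count became 171 with bin edges set in each library on its own, which no longer match position, 11 without the clusters at least 90% Tom+, 9 with a minimum of 50 CPM and 959 with no minimum. The 546 genes past 2-fold along the lobule became 287 with a minimum of 50 CPM and 2911 with none. The added alternatives (matching on depth as well, a marker limit of 4 times the median with clusters of few genes kept, and leaving out clusters led by cholangiocyte or collagen genes) were chosen after seeing the data. Depth limits Cish, with 5660 and 4984 UMIs over all hepatocytes, more than any other member.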
